A study of Homo sapiens with 8 samples.

Results

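Genes of the T-cell lineage were examined as places of protein binding in the 697 line of human pre-B leukaemia cells, an established line grown in medium with 10% fetal bovine serum. The members are 9 genes: CD3E, CD3D, CD3G, CD4, CD8A, GATA3, BCL11B, TCF7 and LCK. They were taken as 7 fixed windows on build hg19, since CD3E, CD3D and CD3G lie in 1 window. Every peak of the 7 deposited lists that overlapped a window by at least 1 bp was a member, which gave 88 of 159806 peaks. Overlapping peaks of different lists were merged, and 33 of the 74123 merged regions lay in the windows. Each antibody (AIOLOS, IKAROS, MTA2, Mi2, HDAC2, OCT2, OCAB) had 1 library, with no treatment of the cells given in the labels, and the series also holds 1 input library made without an antibody. No antibody was repeated, so intervals cover counting error only and no p-value between proteins was computed. ChIP-seq measures where a protein lies on DNA and says nothing about how much RNA a gene makes, so the label of these genes as T-lineage genes was taken from background and not tested.

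CD3E, CD3D and CD3G encode invariant chains of the T-cell receptor complex. CD4 and CD8A encode coreceptors, and LCK encodes the kinase that is held at the tails of those coreceptors and starts signalling from the receptor. GATA3, TCF7 (which encodes TCF-1) and BCL11B encode transcription factors that set up and secure T-cell commitment in the thymus. IKAROS and AIOLOS are related zinc-finger factors of lymphocytes that can recruit NuRD, a chromatin complex with nucleosome remodelling and histone deacetylase activity. MTA2, Mi2 and HDAC2 are NuRD subunits. OCT2 is an octamer-binding factor, and OCAB is its coactivator in B cells.

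Of the 9 genes, 6 matched a RefSeq promoter entry by symbol (CD3D, CD8A, GATA3, BCL11B, TCF7 and LCK, with 16 start sites between them), and CD3E, CD3G and CD4 did not. The sequences are on GRCh38.p14, which is not the build of the peaks, so no peak was placed on them. The 250 bases before each start of LCK and TCF7 are shown because the LCK and TCF7 windows held peaks of more lists, 7 and 6, than the other windows. Capitals mark GGGAA, the core that IKAROS family proteins recognise, or its reverse complement TTCCC. The first LCK start has chr1:32251015-32251264 on the plus strand, the second chr1:32273871-32274120; the TCF7 stretches are chr5:134115363-134115612 and chr5:134123368-134123617, also on the plus strand.
LCK, first start: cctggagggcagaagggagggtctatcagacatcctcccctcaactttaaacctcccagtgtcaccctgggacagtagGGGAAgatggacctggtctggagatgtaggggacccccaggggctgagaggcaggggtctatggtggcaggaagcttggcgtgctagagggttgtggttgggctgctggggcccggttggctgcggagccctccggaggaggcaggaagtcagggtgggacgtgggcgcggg
LCK, second start: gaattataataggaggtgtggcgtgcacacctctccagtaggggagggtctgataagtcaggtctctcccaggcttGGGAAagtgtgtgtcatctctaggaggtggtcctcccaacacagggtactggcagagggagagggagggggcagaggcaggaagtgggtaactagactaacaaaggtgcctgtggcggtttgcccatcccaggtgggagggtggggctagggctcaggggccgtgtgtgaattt
TCF7, first start: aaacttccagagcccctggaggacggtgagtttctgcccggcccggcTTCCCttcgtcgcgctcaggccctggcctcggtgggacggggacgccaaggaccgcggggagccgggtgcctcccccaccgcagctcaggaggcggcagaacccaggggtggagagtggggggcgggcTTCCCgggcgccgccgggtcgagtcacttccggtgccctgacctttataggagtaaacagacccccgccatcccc
TCF7, second start: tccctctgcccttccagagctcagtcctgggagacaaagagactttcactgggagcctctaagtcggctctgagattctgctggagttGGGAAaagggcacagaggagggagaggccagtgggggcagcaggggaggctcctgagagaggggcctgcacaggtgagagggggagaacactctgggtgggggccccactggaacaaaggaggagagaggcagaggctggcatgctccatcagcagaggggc
Both LCK stretches hold 1 match and the TCF7 stretches hold 2 and 1. GGGAA occurred on either strand in 12 of the 16 promoters of the 6 genes (75%) and in 59% of all 35116 promoter entries of the same length, so the letters are common. The octamer letters ATTTGCAT, searched on both strands, were in none of the 16 and in 1.63% of all entries. CTTTGA, a core bound by TCF proteins, was in 1 of the 16 and in 11.2% of all. Several starts of 1 gene lie close together and are not independent.

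Bound regions were found in all 7 windows. The windows span 423 kb and held 7.80 regions per 100 kb (exact Poisson 95% interval 5.37 to 11.0), against 2.51 per 100 kb over chromosomes 1 to 22 and X. LCK had the highest rate, with 8 regions in 47 kb or 17.0 per 100 kb (7.35 to 33.5). GATA3 followed with 9.52 (2.60 to 24.4), TCF7 with 9.26 (3.01 to 21.6) and BCL11B with 7.32 (3.35 to 13.9). CD4, CD8A and the CD3 genes had 4.65, 4.55 and 4.29, and their intervals took in the rate over the chromosomes. The lower limit for GATA3, 2.60, lay just above that rate and below the rate over chromosome 10 alone, 2.69. The intervals of neighbours in this order of windows overlap, and the differences between their rates were not tested. The Poisson intervals also treat regions as independent, although some lie close together. With peaks under 500 bp apart merged, an alternative chosen after seeing the data, LCK held 6 regions, BCL11B 7 and GATA3 3. The counts of the other windows did not change. The windows were drawn around genes and the chromosome rate counts gene deserts too. The part of gene density in the difference between the window and chromosome rates was not tested.

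**Figure D1:**
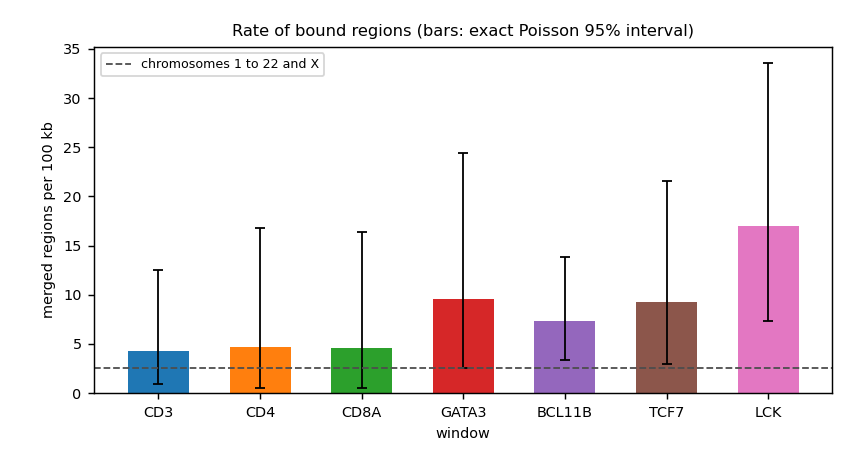
Merged regions per 100 kb of each window (y axis) for the 7 windows (x axis); bars through each column are exact Poisson 95% intervals and the dashed line is the rate over chromosomes 1 to 22 and X. LCK stands highest at 17.0, and the intervals of CD3, CD4 and CD8A cross the line at 2.51.

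IKAROS, which has the longest list (53948 peaks), was the protein most often found at these genes, as it was over all regions. In these windows, wherever AIOLOS was found IKAROS was found too. IKAROS peaks lay in 27 of the 33 regions (81.8%, Wilson 95% interval 65.6 to 91.4; 72.8% of all regions) and AIOLOS peaks in 22 (66.7%, 49.6 to 80.3; 51.4% of all). All 22 AIOLOS regions held IKAROS, where 86.5% of AIOLOS regions in the whole series did, with a difference of 13.5 points (-1.33 to 13.9). In the other direction, AIOLOS was present in 22 of the 27 IKAROS regions (81.5%, 63.3 to 91.8; 61.1% in the whole series), a difference of 20.4 points (2.25 to 30.8). MTA2 lay in 18 regions (54.5%, 38.0 to 70.2; 38.8% of all). Mi2 and HDAC2 each lay in 7 (21.2%, 10.7 to 37.8; 13.9% and 21.8% of all), and each kept 4 peaks when at least 8-fold over input was required. OCT2 lay in 6 (18.2%, 8.61 to 34.4; 11% of all) and OCAB in 1 (3.03%, 0.537 to 15.3; 5.99% of all). For each of the 7 proteins the interval of the difference from the other 74090 regions included 0.

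Regions with IKAROS and AIOLOS together made up 66.7% of those at T-lineage genes (49.6 to 80.3) and 44.4% of all regions. The difference from the other regions was 22.3 percentage points (Newcombe 95% interval 5.19 to 35.8). It was 5.77 points (-10.6 to 22.1) when only peaks with at least 8-fold over input were kept, and 1.32 points (-14.6 to 33.9) with the 2000 highest peaks of each list, so the interval no longer excluded 0 under these criteria. Regions with a peak of 1 list alone were fewer here, 7 of 33 (21.2%) against 44.7% of all regions, a difference of -23.5 points (-34.0 to -6.93). That share was not recomputed under the alternative criteria. At least 1 NuRD subunit was present in 21 of the 33 (63.6%, 46.6 to 77.8; 53.4% of all), a difference of 10.3 points (-6.74 to 24.5), and all 3 subunits in 1 (3.92% of all). Among regions that held both IKAROS and AIOLOS, MTA2 was present in 13 of 22 (59.1%, 38.7 to 76.7), close to the 57.6% of such regions in the whole series, with a difference of 1.48 points (-18.9 to 19.1). The 3 proteins together took in 13 of the 33 regions (39.4%, 24.7 to 56.3; 25.6% of all). IKAROS was present in 15 of the 18 MTA2 regions (83.3%, 60.8 to 94.2; 77% in the whole series). OCT2 or OCAB lay in 6 of the 33 (14.4% of all), a difference of 3.76 points (-5.81 to 20.0). Of these, 4 were in the LCK window, and without it the difference was -6.43 points (-12.2 to 10.5). Among regions with IKAROS and AIOLOS they lay in 5 of 22 (22.7%, 10.1 to 43.4; 20% in the whole series). In all, 19 such shares were compared, with intervals not adjusted for their number, and regions of 1 window are not independent.

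**Figure D2:**
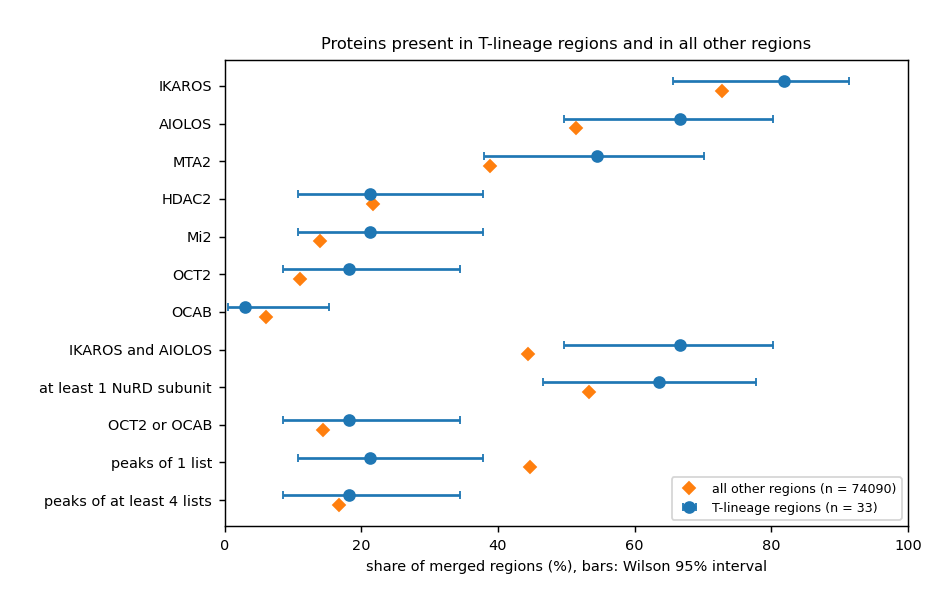
Share of merged regions in percent (x axis) that held each protein or combination (y axis), for the 33 T-lineage regions (circles, with Wilson 95% intervals) and the other 74090 regions (diamonds). The diamonds lie outside the interval for IKAROS with AIOLOS (66.7%) and for peaks of 1 list (21.2%).

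The commonest kinds of region were IKAROS with AIOLOS and no other protein (8 of 33 regions, 24.2%; 15.3% of all regions) and IKAROS, AIOLOS and MTA2 alone (7, 21.2%; 10.3% of all). IKAROS alone was found in 3 regions (9.09%; 22.03% of all) and Mi2 alone in 2 (6.06%; 5.94% of all). Peaks of 4 or more lists met in 6 regions (18.2%, 8.61 to 34.4; 16.8% of all), namely 1 at BCL11B, 1 at CD4, 1 at TCF7 and 3 at LCK. No region held all 7 proteins. Where IKAROS and AIOLOS shared a region, their peak centres lay between 1 and 117 bp apart (median 19.5 bp over 22 regions, against 33 bp over 32931 regions). MTA2 and HDAC2 centres lay 6 to 123 bp apart over 7 regions. Mi2 and MTA2 centres lay 19 to 251 bp apart over 4 regions.

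**Figure D3:**
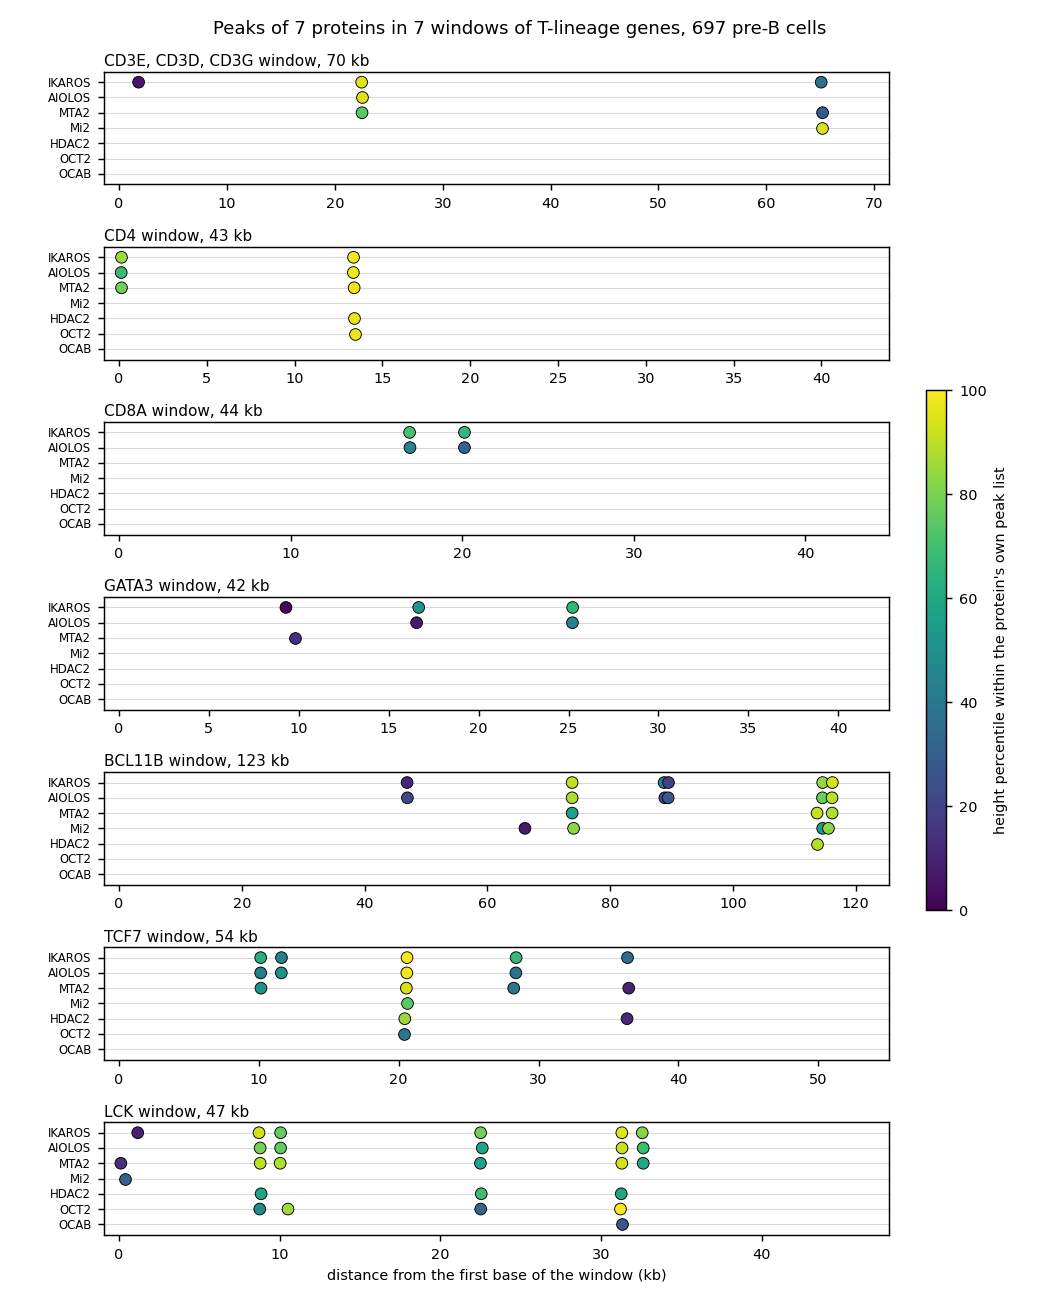
Peaks of each protein (rows) along each window (x axis, kb from the first base of the window); each circle is a peak, coloured by its height percentile within that protein's own list. Peaks line up in columns, and OCT2 marks are found in the CD4, TCF7 and LCK windows.

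Height is given as the tags in a peak per 10 M tags of the library, and as a percentile within the protein's own list, because heights of different antibodies share no scale. Heights at these genes ran over nearly the whole range of each long list. IKAROS heights ran from 6.42 to 239.1, with a median of 30.4 against 20.5 for its list, and 7 of 27 peaks were in the highest 10% of the list. AIOLOS heights ran from 11.2 to 172.4 (median 30.8, list median 23.7), with 5 of 22 in the highest 10%. MTA2 heights ran from 8.32 to 57.8 (median 21.0, list median 16.2), with 5 of 18 in the highest 10%. The median percentile was 66.9 for IKAROS (order-statistic 95% interval 42.8 to 84.9), 63.4 for AIOLOS (36.5 to 88.2) and 67.1 for MTA2 (40.2 to 90.1), so each interval took in the middle of the list. Without the LCK window, an alternative chosen after seeing the data, these medians were 65.3, 45.6 and 65.4. The AIOLOS median was then below the middle of its list.

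Among the transcription factor genes, GATA3 had peaks of the fewest lists. Its highest IKAROS, AIOLOS and MTA2 peaks were lower than those at BCL11B and TCF7. GATA3 is needed for the earliest steps of T-cell development and for helper T cells. Its window held 4 regions, with 3 IKAROS peaks, 2 AIOLOS peaks and 1 MTA2 peak. The highest lay at chr10:8111091-8111367, where IKAROS height was 29.1 (Poisson 95% interval 22.6 to 36.9) and AIOLOS height 21.2 (14.7 to 29.6). Those heights are at the 65.3 and 44.05 percentiles of their lists. At chr10:8102422-8102803 the IKAROS height was 21.4, at the 52.4 percentile, and the AIOLOS height 11.2, which is at the 6.93 percentile of its list. An IKAROS peak of height 6.42, from 15 tags, lay at chr10:8095146-8095418, and the MTA2 peak of height 9.20, from 21 tags, began 242 bp beyond it at chr10:8095660-8095910. These are among the lowest peaks of their lists, at the 2.02 and 13.8 percentiles. Mi2, HDAC2, OCT2 and OCAB had no peak in this window.

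BCL11B, a repressor that locks in T-cell identity, had 9 regions in 123 kb and was the window richest in Mi2. Of the 7 Mi2 peaks at T-lineage genes, 4 were here. Near the end of the window, 4 regions had centres within 2421 bp, and neighbouring regions held called peaks of different proteins. A missing call there does not show that a protein was absent. MTA2 (height 39.4, 31.7 to 48.4) and HDAC2 (24.7, 16.3 to 35.9) lay without IKAROS at chr14:99738585-99738931, with centres 62 bp apart. IKAROS (53.0), AIOLOS (43.0) and Mi2 (15.1, 6.43-fold over input) lay at chr14:99739448-99739794, 517 bp further on. A Mi2 peak stood alone at chr14:99740388-99740734 (height 21.1, 22.4-fold over input). IKAROS (92.0, 80.1 to 105), AIOLOS (72.2, 59.7 to 86.6) and MTA2 (33.7, 26.6 to 42.1) lay together at chr14:99741023-99741335. The IKAROS peak there stood 195-fold over input from 215 tags, but the input held 1 tag in it. The lone Mi2 peak had an input value of 1.7 tags, so both folds are imprecise.

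The region of BCL11B with the most proteins was chr14:99698667-99699213. IKAROS height was 75.3, AIOLOS height 64.7, MTA2 height 17.5 and Mi2 height 21.1 (6.4-fold over input). Its IKAROS peak was in the highest 9.32% of the list and its MTA2 peak near the middle, at the 56.4 percentile. The remaining regions of this window were low: IKAROS and AIOLOS heights were 8.98 and 14.9 at chr14:99671781-99672094, 18.0 and 15.6 at chr14:99713655-99714034, and 11.1 and 16.2 at chr14:99714322-99714638. Another Mi2 peak stood alone at chr14:99690943-99691289, with a height of 9.73 from 18 tags. OCT2 and OCAB had no peak at BCL11B.

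TCF7, an early target of Notch signalling in thymus progenitors, had 5 regions, and all 5 held IKAROS. The main region, chr5:133460273-133460745, held every protein except OCAB. IKAROS height there was 235.2 (216 to 256), rank 444 of 53948. AIOLOS height was 165.0 (146 to 186), rank 692 of 38101. MTA2 height was 44.2 (36.0 to 53.7), at the 93.7 percentile of its list. HDAC2 (22.9), Mi2 (18.4) and OCT2 (12.5) were of lower rank, at the 85.4, 74.3 and 39.6 percentiles. This was the only one of the 33 regions with all 3 NuRD subunits. The HDAC2 and OCT2 centres lay 22 bp apart but 163 and 185 bp from the IKAROS centre, whereas the AIOLOS centre was 16 bp and the Mi2 centre 23 bp from it.

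The other TCF7 regions were lower. At chr5:133449992-133450272 the IKAROS, AIOLOS and MTA2 heights were 26.9, 20.5 and 16.2. At chr5:133468100-133468532 they were 30.4, 18.7 and 14.0. The region chr5:133451474-133451750 held IKAROS (17.5) and AIOLOS (23.7) alone. At chr5:133476171-133476578 IKAROS (15.0), MTA2 (8.32) and HDAC2 (10.1) were found without AIOLOS. That HDAC2 peak rests on 11 tags, and its p-value over input in the authors' list, 1.85e-05, is above the highest p-value in the OCT2 list, 8.92e-10, and in the IKAROS list, 8.32e-10.

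LCK, the receptor-proximal kinase gene, held the most regions per length and 4 of the 6 OCT2 peaks. Its leading region was chr1:32738075-32738437, with peaks of 6 lists. OCT2 height was 136.4 (120 to 154), rank 20 of 8129, which is in the highest 0.246% of the OCT2 list. The OCT2 peak stood 145-fold over input, where the input value was 1.7 tags, so this fold is imprecise. IKAROS height was 109.5 (96.5 to 124), AIOLOS height 79.7 (66.5 to 94.8) and MTA2 height 42.9 (34.8 to 52.3), at the 95.3, 91.9 and 93.2 percentiles. HDAC2 height was 15.6 (9.09 to 25.0). OCAB, which works through octamer-binding factors, had its single peak of the 7 windows here, with a height of 12.0 (7.43 to 18.3) from 21 tags, at the 26.8 percentile. The OCT2 peak was among the highest of its list while the OCAB peak was in the lower part of its own. The OCAB centre lay 85 bp from the OCT2 centre and 1 bp from the IKAROS centre.

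The other regions of the LCK window held lower IKAROS, AIOLOS and OCT2 peaks and no OCAB peak. At chr1:32715573-32715999 the heights were 86.0 for IKAROS, 45.4 for AIOLOS, 36.8 for MTA2, 15.6 for HDAC2 and 13.6 for OCT2. At chr1:32729369-32729736 they were 43.6, 28.0, 17.5, 17.4 and 11.5 in the same order. IKAROS, AIOLOS and MTA2 without the others lay at chr1:32716900-32717190 (39.8, 41.1 and 33.7) and at chr1:32739430-32739756 (47.9, 34.2 and 18.4). An OCT2 peak of height 26.7 (19.8 to 35.3), at the 85.8 percentile, stood alone at chr1:32717377-32717651, beginning 187 bp after the first of these. At the start of the window, chr1:32706985-32707534 held MTA2 (9.20) and Mi2 (12.4), with centres 251 bp apart. A region with IKAROS and AIOLOS, chr1:32706611-32706978, ended just before it, outside the window. An IKAROS peak of height 8.55 lay at chr1:32708025-32708297.

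Of the coreceptor genes, CD4 held the highest IKAROS, AIOLOS, MTA2 and HDAC2 peaks of the 7 windows, all in 1 region. At chr12:6901214-6901550 the IKAROS height was 239.1 (220 to 260), rank 426, and the AIOLOS height was 172.4 (153 to 194), rank 628. MTA2 height was 57.8 (48.4 to 68.5), HDAC2 height 33.9 (23.9 to 46.7) and OCT2 height 48.6 (39.0 to 59.8), at the 97.1, 96.6 and 96.9 percentiles of their lists. The 5 centres lay within 71 bp. The IKAROS, AIOLOS and MTA2 intervals overlap those of the leading TCF7 region (216 to 256, 146 to 186 and 36.0 to 53.7). The HDAC2 interval overlaps that of the highest HDAC2 peak at BCL11B (16.3 to 35.9). The order of these heights was not tested. The other CD4 region, chr12:6887993-6888274, straddles the edge of the window and held IKAROS (55.6), AIOLOS (33.6) and MTA2 (25.8). Its peaks stood 4.57-fold to 8.44-fold over input, and the input held 14 tags in the IKAROS peak.

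CD8A was the window with the fewest proteins. It held 2 regions, 3189 bp apart, each with IKAROS and AIOLOS alone. At chr2:87018794-87019080 the heights were 33.8 (26.8 to 42.1) for IKAROS and 21.8 (15.2 to 30.3) for AIOLOS. At chr2:87021990-87022262 they were 29.5 (23.0 to 37.3) and 17.4 (11.6 to 25.1). The intervals of the pair of regions overlap for both factors. MTA2, Mi2, HDAC2, OCT2 and OCAB had no peak here; the next region past the window, 6389 bp beyond it, held MTA2 with IKAROS and AIOLOS.

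The 70 kb around CD3E, CD3D and CD3G held 3 regions. The central region, chr11:118187352-118187649, was high: IKAROS height was 108.6 (95.7 to 123), AIOLOS height 99.0 (84.2 to 116) and MTA2 height 23.6 (17.7 to 30.8), at the 95.2, 94.7 and 74.4 percentiles. Near the far edge, at chr11:118229958-118230376, Mi2 had its highest peak of the 7 windows, 29.2 (21.9 to 38.1), at the 93.9 percentile, where IKAROS (15.4) and MTA2 (11.8) were in the lower part of their lists. The next coding gene after CD3G is UBE4A, and whether this region belongs to UBE4A or to a CD3 gene was not tested. An IKAROS peak of height 7.70 from 18 tags lay alone at chr11:118166673-118166945. HDAC2, OCT2 and OCAB had no peak in the CD3 window.

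**Figure D4:**
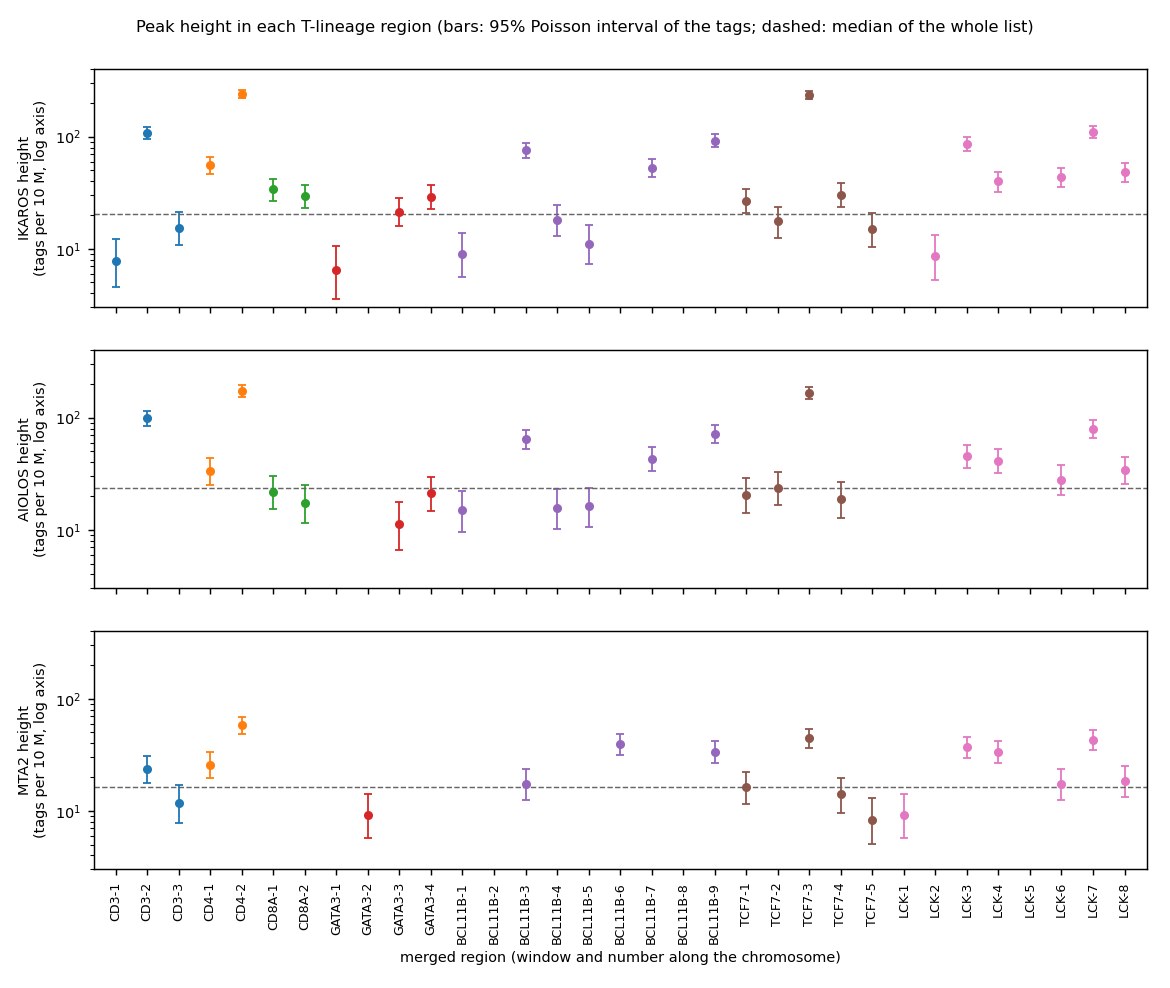
Peak height in tags per 10 M tags (y axis, log scale) of IKAROS, AIOLOS and MTA2 in each of the 33 regions (x axis, numbered along each window and coloured by window); bars are 95% Poisson intervals and the dashed line is the median of the whole list. IKAROS and AIOLOS reach their highest values in the same regions, CD4-2 (239.1 and 172.4) and TCF7-3 (235.2 and 165.0).

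Depth and calling limits differ between lists, and an empty window means that no peak was called at that depth. Depth recovered from the tags was 23.4 M for IKAROS, 22.8 M for MTA2, 18.5 M for Mi2, 18.3 M for OCT2, 17.6 M for OCAB, 16.1 M for AIOLOS and 10.9 M for HDAC2. The member peaks rest on 11 to 559 tags. No annotation on hg19 was used, so no peak was placed in an exon, an intron or a UTR or relative to a start site. A window can also hold a neighbouring gene. In RefSeq order on GRCh38, the neighbouring coding genes are FAM167B and HDAC1 for LCK, LAG3 and GPR162 for CD4, RMND5A and CD8B for CD8A, and UBE4A beyond CD3G. Just outside the windows the nearest region lay 22 bp before LCK (IKAROS and AIOLOS, with an IKAROS height of 8.55) and 2076 bp before CD8A (IKAROS alone, 8.13).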

How the data were processed

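ChIP-seq of 7 proteins in 697 cells is given as 7 peak lists, 1 per library, on build hg19; the input library has no list. Processing used, per the submitters' processing notes, HOMER 4.9.1, Bowtie2 2.3.2.2 and CASAVA 1.8.2, with CASAVA 1.4 for HDAC2. Per the labels' protocols, libraries had 15 PCR cycles and no molecular identifiers are recorded. The HDAC2 list required 4-fold over input and p of at most 0.0001, per the file headers; for the remaining 6 the limits are not stated in the sources used here.

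The deposited height is a signal, tags in the peak per 10 M. The deposited tag count was taken as whole for 5 lists. For IKAROS and MTA2 the authors scaled it to the input, and whole tags were recovered from its steps (100% of values under 60 within 0.075). The deposited fold is a ratio over input, the deposited p-value is HOMER's Poisson value, and the focus fraction the authors deposited was not used in any result.

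Peaks were merged where they overlapped by at least 1 bp and assigned to the windows likewise. Shares have Wilson intervals, differences Newcombe intervals, rates and heights exact Poisson intervals. Alternatives were 8-fold over input, a common p-value of 1e-10, 2000 peaks per list, peak centres in the window, centres within 100 bp, and windows 10 kb longer at both ends; 2 more were added after seeing the data. The text names, in each window, the highest peak of each list, every region with at least 4 lists and every region with OCAB or OCT2, beside the other member regions. The members and lists were chosen with earlier results of these data known. Other T-lineage genes and motifs inside regions were not run, since they need an hg19 annotation or genome. Merging was tested on simulated peaks. Tools were matplotlib 3.10.9, scipy 1.17.1, numpy 2.4.6, statsmodels 0.14.6 and pandas 2.3.3 under Python 3.11.15.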

Additional observations from a re-analysis of the deposited data

How the results depend on the processing

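With the 2000 highest peaks of each list, 9 regions were left in the windows: 1 at CD4, 3 at BCL11B, 1 at TCF7, 2 at LCK, 2 at CD3, and 0 at CD8A and GATA3. There the share with IKAROS and AIOLOS was 22.2%, beside 20.9% of the other regions, and the share with MTA2 33.3%, beside 26.1% (difference 7.26 points, -14.0 to 38.5). The median MTA2 percentile of 10.8 is taken within the 2000 kept peaks, from 3 peaks, and is not comparable with that in the whole list. Windows 10 kb longer at both ends took in 4 regions at CD8A. Without the LCK window, an alternative chosen after seeing the data, 8% of regions held OCT2 or OCAB, 2 of 25, beside 14.4% of the other regions, so the direction turned while both intervals included 0. At 8-fold over input, 4 of the 7 Mi2 peaks and 4 of the 7 HDAC2 peaks were left. The difference in the share with IKAROS and AIOLOS was 17.4 points (0.336 to 31.5) at the common p-value limit, 15.3 (0.444 to 30.1) with centres within 100 bp, 18.1 (2.61 to 31.4) with longer windows and 23.6 (3.99 to 38.4) without LCK. With peaks under 500 bp apart merged, also chosen after seeing the data, it was 28.6 points (10.5 to 39.9), the MTA2 difference was 22.5 points (4.01 to 37.5) and 28 regions remained. Requiring the peak centre to lie in the window changed none of the values compared. The cause of these changes was not tested, apart from the smaller number of peaks that the stricter criteria keep by construction. HDAC2 depth, 10.9 M tags, and the single OCAB peak limit what can be said of those proteins. No paired analysis was possible because each antibody had 1 library, and no library could be left out.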
